A study of Mus musculus with 8 samples.

Results

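The NRF2 redox defence genes were followed as 10 genes, Nfe2l2, Keap1, Slc7a11, Gclc, Gclm, Gsr, Txnrd1, Srxn1, Nqo1 and Hmox1, taken by symbol from a table of 55487 genes. All 10 were in the table. Of these, 9 reached at least 1 FPKM (fragments normalized to transcript length and to the mapped fragments of the library) in at least 2 libraries and were tested, as were 11514 genes in all. The 9 stood above 1 FPKM in every one of the 8 libraries, so no group decided whether they were kept. Slc7a11 did not reach this level and was not tested.

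RNA-seq was performed on liver of male wild-type C57BL/6N mice. The western diet + CCl4 group (1 library) received a high-fat diet, drinking water with 23.1 g/L fructose and 18.9 g/L glucose, and weekly carbon tetrachloride (CCl4) into the peritoneum, and the normal diet + CCl4 group (2 libraries) received chow, tap water and the same injections. The western diet + oil group (2 libraries) and the normal diet + oil group (3 libraries) received corn oil, the vehicle, in place of CCl4. All mice of these groups were injected, so no group is free of injection. The dose of CCl4, the duration and the age of the mice are not given in the sources used here. The western diet + CCl4 values rest on a single library with no spread of its own.

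NRF2, the product of Nfe2l2, is a transcription factor that KEAP1 holds for degradation while the cell is not under oxidative stress. Oxidants and electrophiles modify KEAP1, NRF2 then accumulates, pairs with a small MAF protein and binds antioxidant response elements near its target genes. The targets include enzymes that make and recycle glutathione, the thioredoxin system, quinone reduction and heme breakdown. In liver, hepatocyte cytochrome P450 enzymes turn CCl4 into a radical, and a diet rich in fat and sugar loads hepatocytes with lipid that can be oxidised. Because much of the control of NRF2 acts on the protein, the Nfe2l2 transcript is not a measure of NRF2 activity.

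The core of the antioxidant response element, TGACNNNGC, was looked for on both strands in RefSeq windows of GRCm38.p6 that hold 250 bases before and 50 after a gene's start. Windows were found for 7 of the 10 genes, 9 windows in all, and Gclc, Gsr and Hmox1 had none. The core was in the windows of 4 of the 7 genes, in 4 of 9 windows, against 12.4% of 32851 windows over all genes. The matches that lie upstream of the start are shown because they are the letters that the NRF2 pair is known to read. They are given on the strand of the gene, 5′ to 3′, with the core in capitals and 8 bases on either side. In Gclm and Txnrd1 the core lies on the other strand, so the capitals are its reverse complement. The fourth gene, Srxn1, had its match 28 bases after the start. The Srxn1 sequence shown holds a looser form, TGANNNNGC, 45 bases before the start. Other matches to the looser form, 57 and 158 bases before the Srxn1 start and upstream of Slc7a11, Keap1 and Txnrd1, are not shown.
Nfe2l2: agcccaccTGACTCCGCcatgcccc
Gclm: tcccgggcGCACCGTCAactctcac
Txnrd1: ggatttttGCTTTGTCAttctgaca
Srxn1: attcacccTGAGTCAGCggccgggc

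These stretches lie at chr2:75704887-75704911 on the minus strand for Nfe2l2, chr3:122245415-122245439 on the plus strand for Gclm, chr10:82859106-82859130 on the plus strand for Txnrd1 and chr2:152105471-152105495 on the plus strand for Srxn1. Their cores begin 240, 134, 92 and 45 bases before the RefSeq start of their window. For Txnrd1 this is the second of 3 RefSeq starts, which lies inside the span of the gene given below, and the window at the outermost start held no match. The looser form, which also matches every core match and was chosen after the data had been seen, was in the windows of 6 of 7 genes, in 7 of 9 windows, against 41.3% of all windows. Nqo1 had neither form in its window. A match here is a description of letters, and binding was not measured.

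By level in normal diet + oil, the genes ran on the FPKM scale, which is per transcript length, in the order Gclc (37.4 ± 3.23, SD, n = 3), Txnrd1 (19.9 ± 2.15), Gclm (18.9 ± 0.629), Nfe2l2 (15.3 ± 2.92), Gsr (15.2 ± 1.79), Keap1 (10.8 ± 0.617), Srxn1 (10.1 ± 1.54), Hmox1 (7.67 ± 2.74) and Nqo1 (2.301 ± 0.537). Gclc stood apart at the top and Nqo1 at the bottom, with no library shared with a neighbour in this order. The libraries of each other neighbouring pair overlapped, except Gsr above Keap1. Slc7a11 was listed at 0 in all 3 of these libraries.

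**Figure D1:**
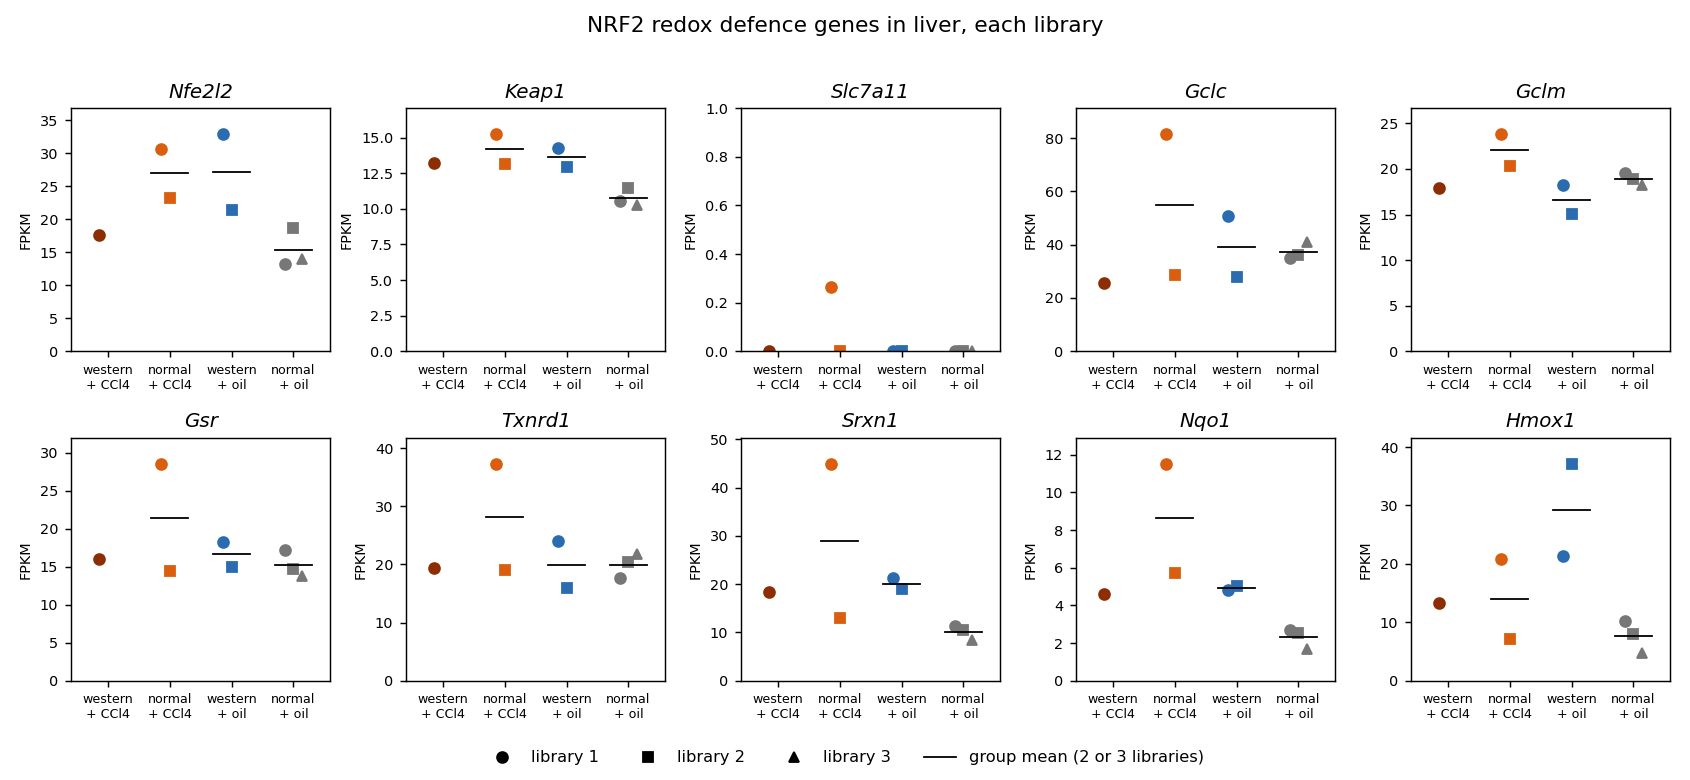
FPKM of each of the 10 genes (1 panel per gene, vertical axis from 0) in the western diet + CCl4, normal diet + CCl4, western diet + oil and normal diet + oil libraries, with points for libraries and a bar for the mean of groups of 2 or 3 libraries; Slc7a11, listed at 0 in 7 libraries, has no mean. Keap1, Srxn1 and Nqo1 lie above all 3 normal diet + oil libraries in each of the other 5, and the 1st normal diet + CCl4 library is the highest of the 8 for 8 genes. Of all genes tested, 40.7% to 51.5% lay above in a single group, and the share for all 5 libraries together was not computed.

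Each group was compared with normal diet + oil on log2(FPKM + 1) with limma, a linear model that shares its estimate of the spread across all genes, with Benjamini-Hochberg adjustment over the 11514 genes. Rose and fell are used of adjusted p-values under 0.05. Among the 9 genes, 1 rose with CCl4 on normal diet, against 1.42% of all genes tested. None of the 9 passed with western diet + CCl4, where 0.929% of all genes did, and none had an unadjusted p below 0.05. None passed with western diet + oil, where 4.41% of all genes did, while 3 had an unadjusted p below 0.05 (Nfe2l2, Nqo1 and Hmox1). With normal diet + CCl4 the unadjusted count was 4, these being Nfe2l2, Keap1, Nqo1 and Srxn1. The 3 comparisons share their normal diet + oil libraries. Whether the libraries stem from different mice is not stated in the labels, and the spread behind each p-value may be technical.

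The log2 fold change was above 0 for 6 of the 9 genes in western diet + CCl4, 9 in normal diet + CCl4 and 7 in western diet + oil, beside 72.2%, 83.9% and 76.7% of all genes. Its median over the 9 was 0.21, 0.41 and 0.31 in that order, beside 0.19, 0.26 and 0.22 over all genes tested. Scaling by the median of ratios brought the medians over all genes to 0.0078, 0.0026 and 0.0027, so differences from the median over all genes are given below as well for the genes described in most detail.

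Every library lay above all 3 normal diet + oil libraries for 4 of the 9 genes with western diet + CCl4, against 51.5% of all genes tested. The 4 were Keap1, Nqo1, Hmox1 and Srxn1. With normal diet + CCl4 this held for 5 genes, Nfe2l2, Keap1, Nqo1, Gclm and Srxn1, against 41.8% of all genes. With western diet + oil it held for 5 genes, Nfe2l2, Keap1, Nqo1, Hmox1 and Srxn1, against 40.7% of all genes. The table as a whole thus leaned upward against normal diet + oil, and 4 or 5 of 9 genes is no clear departure from its shares. Where all 5 libraries outside normal diet + oil are said below to be higher, the share of all genes was not computed.

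**Figure D2:**
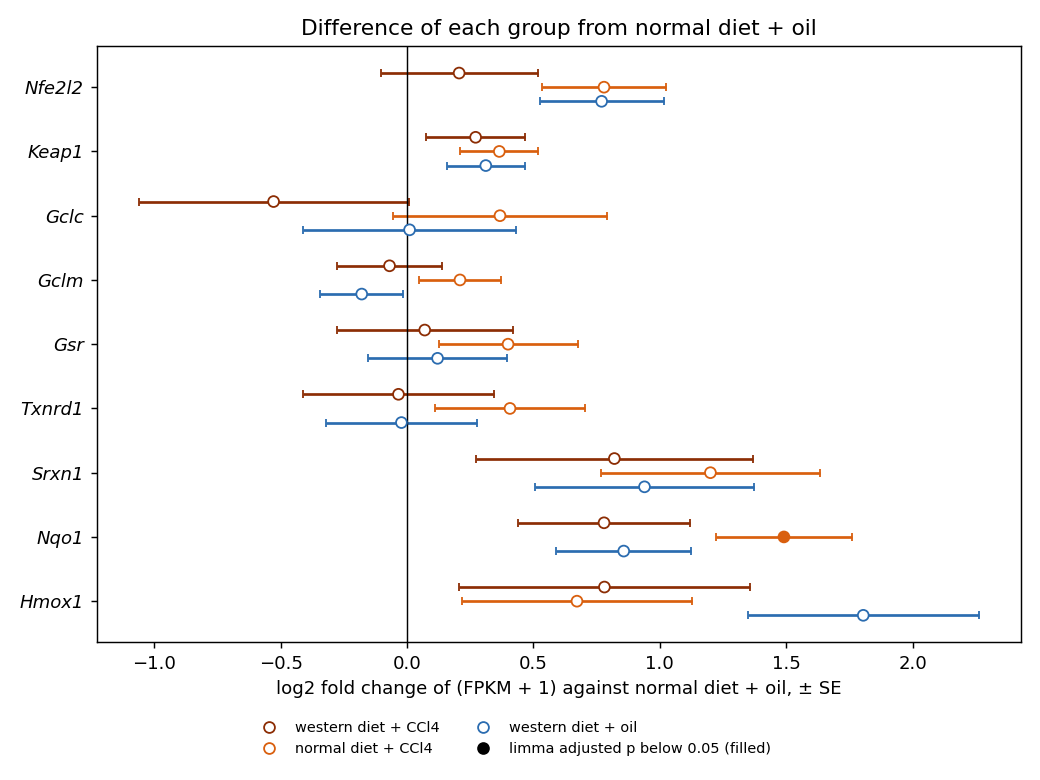
Log2 fold change of (FPKM + 1) against normal diet + oil (horizontal axis, bars ± SE from limma) for the 9 tested genes in western diet + CCl4, normal diet + CCl4 and western diet + oil, top to bottom within each gene; a filled point marks an adjusted p below 0.05. Nqo1 in normal diet + CCl4, at 1.49, is the single filled point, and Gclc, Gclm, Gsr and Txnrd1 lie between -0.53 and 0.41.

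Nfe2l2, which encodes NRF2, lies at chr2:75675513-75704641 on the minus strand (GENCODE M21, GRCm38). It had 17.6 FPKM in the western diet + CCl4 library, 30.6 and 23.3 FPKM in normal diet + CCl4, 32.9 and 21.4 FPKM in western diet + oil, and 13.2, 18.7 and 14.0 FPKM in normal diet + oil. The normal diet + CCl4 and western diet + oil libraries all lay above the normal diet + oil libraries, whereas the western diet + CCl4 library lay among them. The log2 fold change was 0.21 ± 0.31 (SE, adjusted p = 0.797) for western diet + CCl4, 0.78 ± 0.25 (adjusted p = 0.144) for normal diet + CCl4 and 0.77 ± 0.25 (adjusted p = 0.114) for western diet + oil by limma. Relative to the median over all genes these were 0.016, 0.52 and 0.55.

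Keap1, whose product marks NRF2 for degradation, lies at chr9:21229730-21239361 on the minus strand. It had 13.2 FPKM in the western diet + CCl4 library, 15.2 and 13.1 FPKM in normal diet + CCl4, 14.3 and 12.9 FPKM in western diet + oil, and 10.6, 11.5 and 10.3 FPKM in normal diet + oil. All 5 libraries outside normal diet + oil were higher than the 3 within it, by small amounts. The log2 fold changes were 0.27 ± 0.19, 0.37 ± 0.15 and 0.31 ± 0.15 (SE) for western diet + CCl4, normal diet + CCl4 and western diet + oil, and limma's adjusted p lay at 0.552, 0.213 and 0.271. An antisense gene, Gm16754, shares 510 exon bases with Keap1 and had at most 0.5104 FPKM.

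The ratio of Nfe2l2 to Keap1, both per length, was 1.34 in the western diet + CCl4 library, 2.01 and 1.77 in normal diet + CCl4, 2.300 and 1.65 in western diet + oil, and 1.25, 1.63 and 1.37 in normal diet + oil. It was above 1 in all 8 libraries. The normal diet + CCl4 and western diet + oil ratios lay above those of normal diet + oil, the closest pair being 1.65 and 1.63.

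Glutathione synthesis starts with cystine, which the transporter encoded by Slc7a11 (chr3:49892526-50443614, minus strand) brings into the cell. Slc7a11 was listed at 0 in 7 libraries and had 0.266 FPKM in the 1st normal diet + CCl4 library. The lowest values above 0 in the libraries lay between 0.252 and 0.318 FPKM, so this value is at the edge of what the table lists.

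Gclc encodes the catalytic subunit of glutamate-cysteine ligase, the rate-limiting enzyme of glutathione synthesis, and lies at chr9:77754535-77794485 on the plus strand. It had 25.6 FPKM in the western diet + CCl4 library, 81.4 and 28.6 FPKM in normal diet + CCl4, 50.8 and 27.7 FPKM in western diet + oil, and 34.9, 36.2 and 41.0 FPKM in normal diet + oil. In both groups of 2, 1 library lay above normal diet + oil and the other below it. The log2 fold change was -0.53 ± 0.53 (SE, adjusted p = 0.687) with western diet + CCl4, 0.37 ± 0.42 (adjusted p = 0.577) with normal diet + CCl4 and 0.01 ± 0.42 (adjusted p = 0.993) with western diet + oil by limma. Without the 1st normal diet + CCl4 library the middle value turned to -0.37.

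Gclm encodes the modifier subunit of the same enzyme and lies at chr3:122245557-122270732 on the plus strand. It had 17.96 FPKM in the western diet + CCl4 library, 23.8 and 20.3 FPKM in normal diet + CCl4, 18.2 and 15.1 FPKM in western diet + oil, and 19.5, 18.9 and 18.3 FPKM in normal diet + oil. The 2 CCl4 libraries on normal diet were the highest of the 8, and both western diet + oil libraries lay below normal diet + oil. The log2 fold changes of -0.07 ± 0.21, 0.21 ± 0.16 and -0.18 ± 0.16 (SE) for western diet + CCl4, normal diet + CCl4 and western diet + oil had adjusted p of 0.902, 0.426 and 0.542 by limma. Under median-of-ratios scaling the value for normal diet + CCl4 was -0.11. Gclm shares 296 exon bases with Gm17494 on the opposite strand, which had 25.4 to 53.7 FPKM, and 244 with the pseudogene Gm6061 on its own strand, which was at 0, so its level is uncertain as far as the counting did not separate them.

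The ratio of the catalytic to the modifier subunit transcript, both per length, was 1.42 in the western diet + CCl4 library, 3.42 and 1.41 in normal diet + CCl4, 2.79 and 1.84 in western diet + oil, and 1.79, 1.92 and 2.24 in normal diet + oil. The 2 normal diet + CCl4 libraries held both the highest and the lowest ratio of the 8.

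Gsr encodes glutathione reductase, which returns oxidised glutathione to its reduced form with NADPH, and lies at chr8:33652523-33698163 on the plus strand. It had 16.0 FPKM in the western diet + CCl4 library, 28.6 and 14.4 FPKM in normal diet + CCl4, 18.3 and 15.03 FPKM in western diet + oil, and 17.2, 14.7 and 13.8 FPKM in normal diet + oil. Apart from the 1st normal diet + CCl4 library the values of all groups lay between 13.8 and 18.3 FPKM. The log2 fold changes against normal diet + oil, 0.07 ± 0.35, 0.40 ± 0.27 and 0.12 ± 0.27 (SE) in the order of the groups, did not pass by limma (adjusted p = 0.945, 0.375 and 0.823).

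Txnrd1 encodes cytosolic thioredoxin reductase, which keeps thioredoxin reduced, and lies at chr10:82833951-82897712 on the plus strand. It had 19.4 FPKM in the western diet + CCl4 library, 37.3 and 18.96 FPKM in normal diet + CCl4, 24.0 and 15.9 FPKM in western diet + oil, and 17.6, 20.3 and 21.8 FPKM in normal diet + oil. The group means of western diet + oil and normal diet + oil were both 19.9 FPKM. The log2 fold changes were -0.03 ± 0.38, 0.41 ± 0.30 and -0.02 ± 0.30 (SE) in the order of the groups, with adjusted p of 0.976, 0.399 and 0.976 by limma. Under rescaling to a common sum, the values for western diet + CCl4 and western diet + oil were 0.080 and 0.078.

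Srxn1 encodes sulfiredoxin, which repairs over-oxidised peroxiredoxins, and lies at chr2:152105516-152111376 on the plus strand. It had 18.4 FPKM in the western diet + CCl4 library, 44.9 and 12.9 FPKM in normal diet + CCl4, 21.3 and 18.9 FPKM in western diet + oil, and 11.3, 10.5 and 8.35 FPKM in normal diet + oil. All 5 libraries outside normal diet + oil were higher than the 3 within it, and the 2 normal diet + CCl4 libraries were the furthest apart. The log2 fold changes were 0.82 ± 0.55, 1.20 ± 0.43 and 0.94 ± 0.43 (SE) in the order of the groups, with adjusted p of 0.522, 0.174 and 0.241 by limma. Relative to the median over all genes they were 0.63, 0.94 and 0.72. Srxn1 passed with western diet + oil when the 1st or the 2nd normal diet + CCl4 library was left out of the fit (adjusted p = 0.0249 and 0.0251), and with normal diet + CCl4 when the 2nd was left out (log2 fold change 2.06, adjusted p = 0.00609). Without the 1st, its log2 fold change with normal diet + CCl4 was 0.34.

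Nqo1 encodes NAD(P)H quinone dehydrogenase, which reduces quinones in a step that forms no radical and is widely used as a readout of NRF2. It lies at chr8:107388225-107403206 on the minus strand. Nqo1 had 4.61 FPKM in the western diet + CCl4 library, 11.5 and 5.74 FPKM in normal diet + CCl4, 4.83 and 5.01 FPKM in western diet + oil, and 2.69, 2.53 and 1.69 FPKM in normal diet + oil. The groups did not overlap with normal diet + oil, and both normal diet + CCl4 libraries were above all the others. Nqo1 rose with normal diet + CCl4, by 1.49 ± 0.27 on the log2 scale (SE, limma adjusted p = 0.0435), which is 2.81-fold on the scale of FPKM + 1. Relative to the median over all genes the difference was 1.23.

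In western diet + CCl4, Nqo1 differed by 0.78 ± 0.34 on the log2 scale (SE, limma adjusted p = 0.328), and in western diet + oil by 0.86 ± 0.27 (adjusted p = 0.110). The call with normal diet + CCl4 stood close to the threshold. It was lost without the 1st normal diet + CCl4 library (1.04, adjusted p = 0.194), without any 1 of the normal diet + oil libraries (1.35 to 1.58, adjusted p = 0.0862 to 0.123), without either western diet + oil library (adjusted p = 0.123 for both) and with median-of-ratios scaling (1.23, adjusted p = 0.0656). Without the 2nd normal diet + CCl4 library it was 1.94 (adjusted p = 0.00751). With western diet + oil Nqo1 passed without the 1st or the 2nd normal diet + CCl4 library (adjusted p = 0.0335 and 0.0336).

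Hmox1 encodes heme oxygenase 1, which opens heme to biliverdin, iron and carbon monoxide, and lies at chr8:75093621-75100589 on the plus strand. It had 13.4 FPKM in the western diet + CCl4 library, 20.8 and 7.12 FPKM in normal diet + CCl4, 21.4 and 37.1 FPKM in western diet + oil, and 10.2, 8.00 and 4.78 FPKM in normal diet + oil. Both western diet + oil libraries were above all 3 normal diet + oil libraries, while of the normal diet + CCl4 libraries 1 lay above all 3 normal diet + oil libraries and the other among them. The log2 fold change was 0.78 ± 0.58 (SE, adjusted p = 0.566) with western diet + CCl4, 0.67 ± 0.46 (adjusted p = 0.371) with normal diet + CCl4 and 1.80 ± 0.46 (adjusted p = 0.0657) with western diet + oil by limma. The last is 3.49-fold on the scale of FPKM + 1 and 1.59 relative to the median over all genes. Hmox1 passed with western diet + oil under rescaling to a common sum (1.96, adjusted p = 0.0422), and without the 1st or the 2nd normal diet + CCl4 library (adjusted p = 0.0254 and 0.0253). With normal diet + CCl4 and without the 1st of its libraries, the log2 fold change was -0.042.

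Macrophages that take up red cells express Hmox1, and 11 Kupffer cell and macrophage markers were summed beside it. Their sum was 477 FPKM in the western diet + CCl4 library, 437 and 156 FPKM in normal diet + CCl4, 577 and 1097 FPKM in western diet + oil, and 82.1, 129 and 148 FPKM in normal diet + oil. None of the 11 was at 0 in any library, and 10 of 11 rose with western diet + oil by limma, Cd68 being the exception. The 4 libraries highest in Hmox1 were also the 4 highest in this sum. In bulk liver, more cells of a type and more RNA per cell cannot be told apart, and the part of these cells in the Hmox1 values was not tested. Of 7 erythroid genes, the summed level was 732 FPKM in the western diet + CCl4 library, 253 and 282 FPKM in normal diet + CCl4, 928 and 554 FPKM in western diet + oil, and 230 to 350 FPKM in normal diet + oil, with Slc4a1 at 0 in every library. Of the 5 erythroid genes tested, 3 rose with western diet + oil (Hba-a1, Hba-a2 and Hbb-bs), and their part in the Hmox1 values was not tested either.

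**Figure D3:**
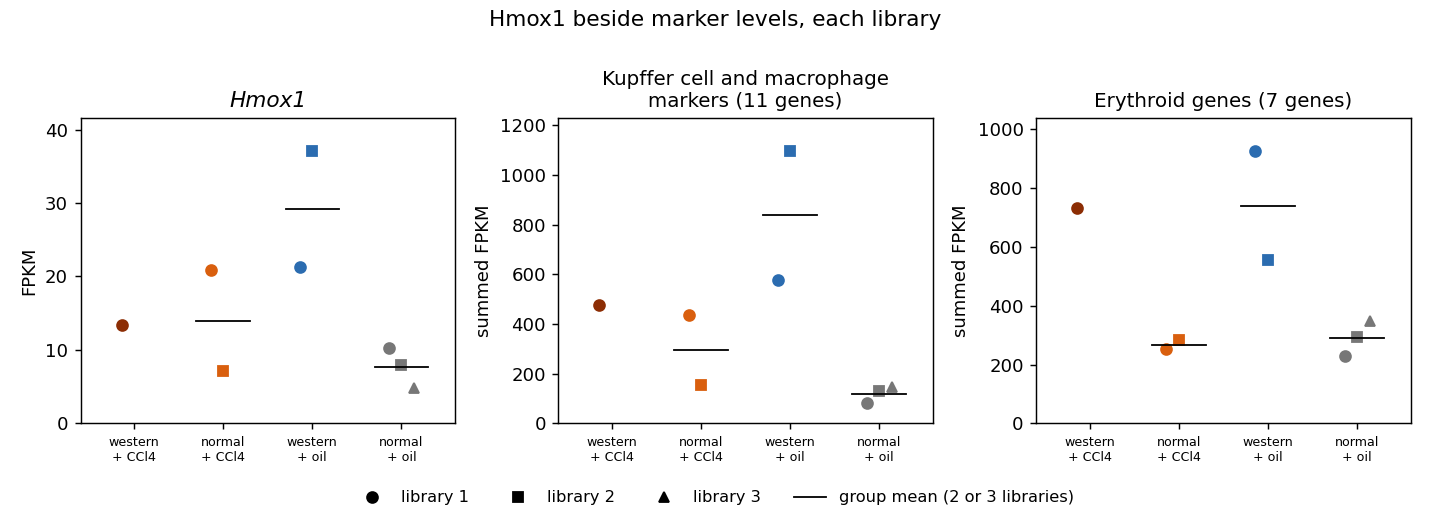
Hmox1 (left, FPKM) beside the summed FPKM of 11 Kupffer cell and macrophage markers (middle) and of 7 erythroid genes (right) in each library of the 4 groups, with a bar for the mean of groups of 2 or 3 libraries. The 2nd western diet + oil library is highest in Hmox1, at 37.1, and in the macrophage sum, at 1097, while the 1st is highest in the erythroid sum, at 928.

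The groups other than normal diet + oil were also compared with each other. With western diet + CCl4 against western diet + oil none of the 9 genes passed, against 0.0434% of all genes, and none had an unadjusted p below 0.05. The log2 fold changes lay between -1.02 (Hmox1) and 0.11 (Gclm), with 8 of the 9 below 0, beside 55.2% of all genes. Their median was -0.08 beside -0.03 over all genes. With western diet + CCl4 against normal diet + CCl4 none passed, against 0.261% of all genes, and none had an unadjusted p below 0.05. The values lay between -0.90 (Gclc) and 0.11 (Hmox1), with 8 of 9 below 0, beside 59.2% of all genes. Their median was -0.38 beside -0.07 over all genes. This comparison and the one before it share the single western diet + CCl4 library. With normal diet + CCl4 against western diet + oil none passed, against 0.617% of all genes, and none had an unadjusted p below 0.05. Here Nqo1 was at 0.63 ± 0.29 (SE), Gclm at 0.39 ± 0.18 and Hmox1 at -1.13 ± 0.50, each without overlap of libraries. Limma's adjusted p lay at 0.481, 0.479 and 0.457 in this order. The share of all genes without overlap was not computed for this comparison.

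The interaction asks whether the CCl4 difference on western diet departed from that on normal diet. It was below 0 for all 9 genes, beside 81.1% of all genes, with a median of -0.91 beside -0.29. For 3 of the 9, Nfe2l2, Nqo1 and Srxn1, every CCl4 library was higher than oil on normal diet and lower on western diet, against 14.7% of all genes. None of the 9 passed by limma, against 0.0608% of all genes, and 2 had an unadjusted p below 0.05, Nfe2l2 at -1.34 ± 0.41 (SE, adjusted p = 0.400) and Nqo1 at -1.57 ± 0.45 (adjusted p = 0.373). The western diet + CCl4 side of this contrast is 1 library. Without the 2nd normal diet + CCl4 library, the interaction was -2.01 for Nqo1 and -2.18 for Srxn1. Without the 1st, its normal diet side shrank, with Nqo1 at 1.04 and Srxn1 at 0.34 for CCl4 against oil. For Gclm, Gsr and Txnrd1 that side was then 0.101, -0.070 and -0.062, slightly lower than the western diet side of 0.110, -0.051 and -0.012. For the other tested genes the normal diet side stayed above the western diet side. That the interaction was below 0 for all 9 genes, rather than for most, thus rests on the 1st normal diet + CCl4 library.

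The 1st normal diet + CCl4 library was the highest of the 8 for 7 of the 9 tested genes, against 37.4% of all genes tested, and for 8 of the 10 genes with Slc7a11. The exceptions were Nfe2l2 and Hmox1, which were highest in western diet + oil. The difference between the 1st and 2nd normal diet + CCl4 libraries on log2(FPKM + 1) was above 0 for 9 of 9 genes, with a median of 0.94, beside a median of 0.18 and 70.0% above 0 over all genes. Between the 1st and 2nd western diet + oil libraries it was above 0 for 7 of 9, with a median of 0.25, beside 0.02 and 51.9% over all genes. Regardless of sign, the median size of the difference was 0.94 over the 9 genes and 0.27 over all genes between the normal diet + CCl4 libraries, and 0.27 and 0.22 between the western diet + oil libraries, which describes 2 libraries in each group.

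**Figure D4:**
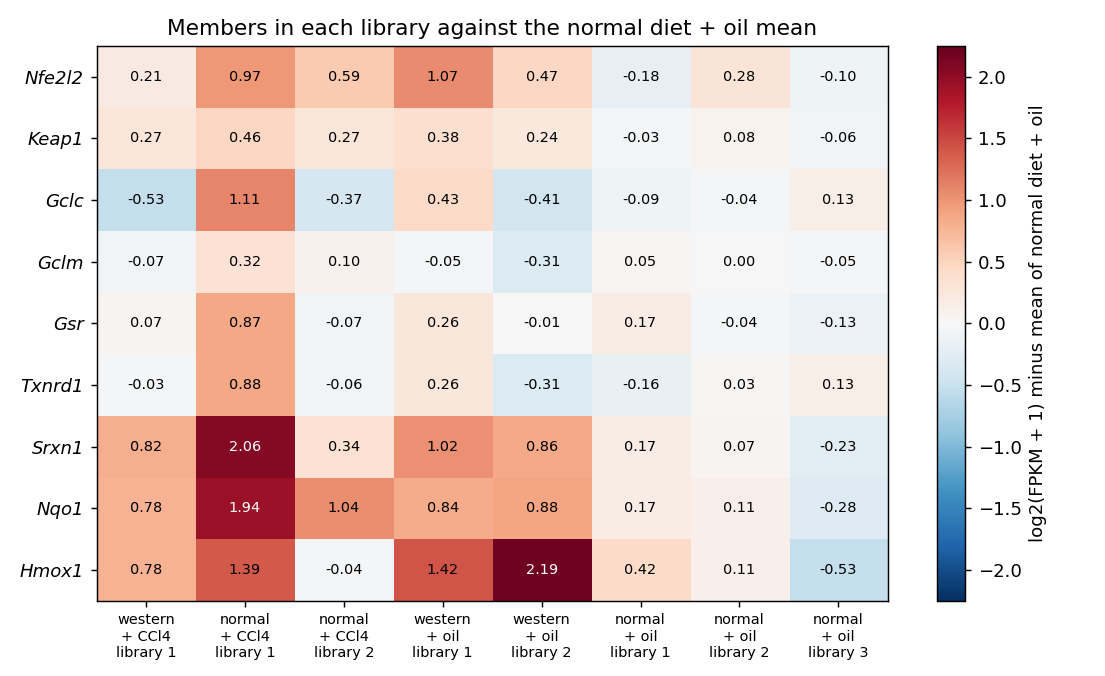
Log2(FPKM + 1) minus the normal diet + oil mean for the 9 tested genes (rows) in each of the 8 libraries (columns, grouped), with blue below 0 and red above 0 and the value in each cell. The 1st normal diet + CCl4 column is above 0 in all rows, up to 2.06 in Srxn1, while the 2nd is between -0.37 and 1.04.

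Of the marker sums, those of stellate cells, sinusoidal endothelial cells, hepatocytes and cholangiocytes were highest of the 8 in this library, and the macrophage sum given above was higher in it than in the 2nd. The sum of 9 stellate cell and myofibroblast markers, none at 0, was 74.7 FPKM in the western diet + CCl4 library, 175 and 51.6 FPKM in normal diet + CCl4, 95.2 and 108 FPKM in western diet + oil, and 29.5 to 41.5 FPKM in normal diet + oil. None of the 9 passed by limma with normal diet + CCl4. Each of the 9 differed upward, beside 83.9% of all genes, with a median log2 fold change of 1.03 beside 0.26. All 9 also differed upward with western diet + CCl4 (median 1.03) and with western diet + oil (median 0.995), where Dcn rose. The sum of 8 sinusoidal endothelial markers, none at 0, was 47.1 FPKM in the western diet + CCl4 library, 95.3 and 61.7 FPKM in normal diet + CCl4, 75.7 and 84.0 FPKM in western diet + oil, and 34.6 to 48.5 FPKM in normal diet + oil, and none of the 8 passed with normal diet + CCl4. The sum of 6 cholangiocyte markers was 174 FPKM in the western diet + CCl4 library, 459 and 28.6 FPKM in normal diet + CCl4, 60.4 and 97.2 FPKM in western diet + oil, and 18.5 to 39.8 FPKM in normal diet + oil. Spp1, which macrophages also express, made up 455 FPKM of the 459 in the 1st normal diet + CCl4 library, and Cftr was at 0 in every library. Krt19 and Epcam, which mark the duct epithelium, were highest in the western diet + CCl4 library (1.13 and 1.54 FPKM) and had 0.832 and 1.32 FPKM in the 1st normal diet + CCl4 library. The part of these cells in the values of the 10 genes was not tested.

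All 8 hepatocyte markers were above 0 in every library, and their sum was 36772 FPKM in the western diet + CCl4 library, 57404 and 50019 FPKM in normal diet + CCl4, 39845 and 32667 FPKM in western diet + oil, and 35341 to 44577 FPKM in normal diet + oil. Alb alone made up 38054 and 32099 FPKM of the normal diet + CCl4 sums. With normal diet + CCl4, 3 of the 8 markers had a log2 fold change above 0, beside 83.9% of all genes. Their median was -0.14 beside 0.26 over all genes, and none passed by limma. The Mup family, the major urinary proteins of hepatocytes, held 8.22% of summed FPKM in western diet + CCl4, 2.80% and 4.65% in normal diet + CCl4, 9.16% and 10.04% in western diet + oil and 16.9% to 32.5% in normal diet + oil. FPKM are relative to the whole library, and the Mup share was lowest in normal diet + CCl4. With the Mup family removed and the rest rescaled, Nqo1 had a log2 fold change of 1.53 with normal diet + CCl4 (limma adjusted p = 0.0558). Neutrophil markers summed to 480 FPKM in the western diet + CCl4 library, 4.68 to 7.28 FPKM in normal diet + CCl4, 22.7 to 44.3 FPKM in western diet + oil and 2.10 to 9.49 FPKM in normal diet + oil.

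Other genes of the NRF2 pathway and further antioxidant enzymes were listed as 6 groups, of which 54 of 58 genes were tested. In both CCl4 groups none passed, and 1, Sod3, rose with western diet + oil. Log2 fold changes were above 0 for 37, 46 and 44 of the 54 in the order western diet + CCl4, normal diet + CCl4 and western diet + oil. Over all genes tested these shares were 72.2%, 83.9% and 76.7%. The 1st normal diet + CCl4 library was the highest for 18 of the 54, beside the 37.4% of all genes given above.

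Of 11 genes that make up or steer the NRF2 circuit, such as Cul3, Bach1 and Sqstm1, 10 were tested and none passed in the comparisons with normal diet + oil. The one with the smallest p was Mafk, a small MAF partner of NRF2, with 4.52 FPKM in the western diet + CCl4 library, 3.69 and 4.46 FPKM in normal diet + CCl4, 4.35 and 4.204 FPKM in western diet + oil, and 2.08, 2.89 and 2.11 FPKM in normal diet + oil. All 5 libraries outside normal diet + oil were higher than the 3 within it. Its log2 fold change with western diet + oil was 0.66 ± 0.17 (SE, limma adjusted p = 0.0654).

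The NADPH supply enzymes feed both reductases described above, and none of the 6 passed. G6pdx, glucose-6-phosphate dehydrogenase, had 2.90 FPKM in the western diet + CCl4 library, 3.29 and 1.31 FPKM in normal diet + CCl4, 3.04 and 3.85 FPKM in western diet + oil, and 1.59, 1.83 and 1.18 FPKM in normal diet + oil. Its log2 fold change with western diet + oil was 0.81 ± 0.27 (SE, limma adjusted p = 0.124). Pgd, the next dehydrogenase of the pentose phosphate pathway, had 22.1 FPKM in the western diet + CCl4 library, 38.3 and 18.6 FPKM in normal diet + CCl4, 31.1 and 26.7 FPKM in western diet + oil, and 17.4, 18.1 and 11.6 FPKM in normal diet + oil. Both enzymes were higher in the western diet + oil libraries than in every normal diet + oil library.

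Of 9 further glutathione and thioredoxin genes, 7 were tested and none passed. All 7 had log2 fold changes above 0 in each of the 3 comparisons, beside 72.2%, 83.9% and 76.7% of all genes. Those comparisons share their normal diet + oil libraries. Gss, glutathione synthetase, which completes glutathione, had 31.3 FPKM in the western diet + CCl4 library, 71.6 and 30.8 FPKM in normal diet + CCl4, 37.1 and 35.4 FPKM in western diet + oil, and 19.1, 20.3 and 17.7 FPKM in normal diet + oil. The log2 fold change of Gss with normal diet + CCl4 was 1.26 ± 0.31 (SE, limma adjusted p = 0.106). Slc3a2, the heavy chain that pairs with the Slc7a11 product, had 12.7 FPKM in the western diet + CCl4 library, 16.9 and 14.7 FPKM in normal diet + CCl4, 17.1 and 22.5 FPKM in western diet + oil, and 12.0, 11.5 and 10.6 FPKM in normal diet + oil. Slc3a2 pairs with other transporters too, and its libraries in the other 3 groups all lay above normal diet + oil. Ggct, gamma-glutamylcyclotransferase, differed by 1.05 ± 0.24 on the log2 scale (SE, limma adjusted p = 0.1004) with western diet + CCl4.

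Of 11 detoxification and export genes, 10 were tested and none passed. Their median log2 fold change was -0.14 in western diet + CCl4, 0.80 in normal diet + CCl4 and 0.13 in western diet + oil, beside 0.19, 0.26 and 0.22 over all genes. Cbr1, a carbonyl reductase, had 59.1 FPKM in the western diet + CCl4 library, 124 and 75.5 FPKM in normal diet + CCl4, 55.3 and 74.6 FPKM in western diet + oil, and 43.9, 37.9 and 30.4 FPKM in normal diet + oil. Its log2 fold change with normal diet + CCl4 was 1.36 ± 0.27 (SE, limma adjusted p = 0.0590). Cbr3, a related carbonyl reductase, had 8.65 FPKM in the western diet + CCl4 library, 16.3 and 1.89 FPKM in normal diet + CCl4, 1.92 and 2.83 FPKM in western diet + oil, and 0.630, 0 and 0.365 FPKM in normal diet + oil. Every library outside normal diet + oil was higher than the 3 within it for both genes, and Cbr3 was the more uneven between the 2 normal diet + CCl4 libraries.

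None of the 6 heme and iron genes passed. Fth1, the ferritin heavy chain that stores the iron which heme breakdown releases, had 913 FPKM in the western diet + CCl4 library, 1176 and 881 FPKM in normal diet + CCl4, 1030 and 1235 FPKM in western diet + oil, and 804, 729 and 586 FPKM in normal diet + oil. Its log2 fold change with western diet + oil was 0.69 ± 0.23 (SE, limma adjusted p = 0.135). Slc40a1, the iron exporter ferroportin, differed on the log2 scale by 0.67 ± 0.25 (SE, adjusted p = 0.185) with normal diet + CCl4, and Fech, which puts iron into heme, -0.47 ± 0.26 (adjusted p = 0.439) with western diet + CCl4.

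Among 15 antioxidant enzymes outside the NRF2 lists, 1 rose with western diet + oil and none in the other comparisons with normal diet + oil. Sod3, the extracellular superoxide dismutase, had 10.1 FPKM in the western diet + CCl4 library, 15.5 and 7.14 FPKM in normal diet + CCl4, 12.3 and 20.2 FPKM in western diet + oil, and 3.91, 4.25 and 3.00 FPKM in normal diet + oil. It rose with western diet + oil by 1.84 ± 0.33 on the log2 scale (SE, limma adjusted p = 0.0275). The call was lost with no filter (limma adjusted p = 0.0856) and without any 1 of the normal diet + oil libraries (adjusted p = 0.0742 to 0.0766). It was also lost without either western diet + oil library. Gpx3, the plasma glutathione peroxidase, had 23.6 FPKM in the western diet + CCl4 library, 18.04 and 3.81 FPKM in normal diet + CCl4, 6.42 and 12.2 FPKM in western diet + oil, and 3.21, 5.24 and 2.14 FPKM in normal diet + oil. The Gpx3 log2 fold change with western diet + CCl4 was 2.50 ± 0.71 (SE, limma adjusted p = 0.157).

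The genes most like the 7 tested targets were found by the mean absolute difference between a gene's standardised values in the 8 libraries and the mean standardised profile of Nqo1, Gclc, Gclm, Gsr, Hmox1, Srxn1 and Txnrd1. The profile stood at 2.28 in the 1st normal diet + CCl4 library, 0.51 in the 1st western diet + oil library and below 0 in the other 6, so it is mainly that of 1 library. The 5 genes outside the set with the smallest difference were Cast (0.1298), Bub3 (0.144), Topbp1 (0.149), Cdca3 (0.154) and Psme3 (0.161). Among the 7 targets, Gsr was nearest to their mean (0.147), followed by Srxn1 (0.300) and Txnrd1 (0.341), while Hmox1 (0.668) and Gclm (0.694) were furthest. Cdca3, a cell division gene, had 2.08 FPKM in the western diet + CCl4 library, 26.3 and 1.28 FPKM in normal diet + CCl4, 2.65 and 0.946 FPKM in western diet + oil, and 0.663, 0.682 and 0.548 FPKM in normal diet + oil. None of the 5 passed in a comparison with normal diet + oil.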

How the data were processed

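The liver values were deposited by the authors as FPKM per gene. Per the submitters' processing notes, the tools were HISAT2 2.2.1, StringTie 2.1.0, cutadapt 3.7 and FastQC 0.11.9 and the build was GRCm38, with no role given. Libraries were made with a stranded mRNA kit, per the labels' protocols, and whether counting used strand is not stated there. Deposited FPKM summed to 514832 to 612747 per library, and low values showed no whole-read steps, so depth is unknown and no counting interval was computed.

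From the deposited FPKM, log2(FPKM + 1) of genes with at least 1 FPKM in at least 2 libraries was analysed in R 4.3.3 by limma 3.58.1 (eBayes with a trend, 7 contrasts, 1 mean per group, 7.93 total degrees of freedom; two-sided, Benjamini-Hochberg within a contrast). The lone western diet + CCl4 sample takes its spread from the other groups. Tables were made in Python 3.11.15, and the fit was tested on simulated data. Named pathway genes were the gene with the smallest p of each list in each comparison with normal diet + oil, and any that passed. Alternatives were another pseudocount, no filter, rescaling to a sum of 1000000, median-of-ratios scaling, Mup removal, each library left out, the replicate number as a block, the compared groups alone and unadjusted p. The genes, lists and alternatives were chosen with earlier results of these data known. A listed marker gene is not reported here.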

Additional observations from a re-analysis of the deposited data

Results flagged for a closer look

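For 3 genes the CCl4 difference lay in opposite directions on the 2 diets in every library, with normal diet up and western diet down, as it did for 14.7% of all genes tested. Over all genes tested the interaction was below 0 for 81.1%, with a median of -0.29. Nfe2l2 was higher with CCl4 than with oil on normal diet and lower on western diet, with an interaction of -1.34 on the log2 scale (limma adjusted p = 0.400). Nqo1 did so with an interaction of -1.57 (adjusted p = 0.373), and Srxn1 with -1.32 (adjusted p = 0.550). On normal diet the log2 fold change of CCl4 against oil was 0.78, 1.49 and 1.20 in this order. Without the 1st normal diet + CCl4 library it was 0.59, 1.04 and 0.34. None of the 3 passed, and the western diet + CCl4 side is 1 library in each. Nfe2l2 was at 17.6 FPKM in that library, below the 21.4 and 32.9 FPKM of western diet + oil, while Nqo1 (4.61 FPKM, against 4.83 and 5.01 FPKM) and Srxn1 (18.4 FPKM, against 18.9 and 21.3 FPKM) lay close under them.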

How the results depend on the processing

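Of 396 recomputed log2 fold changes of the 9 genes, 350 kept their direction and their side of the threshold, 24 changed sign, 11 no longer passed and 11 newly passed. The 11 that no longer passed were all Nqo1 with normal diet + CCl4, the 1 value of 27 that passed as reported. Most of the 350 were values that did not pass before or after. The count of the 9 genes that passed with normal diet + CCl4 against normal diet + oil, 1 as reported, was 0 with no filter, median-of-ratios scaling, Mup removal, the replicate block or the compared groups alone, 4 by unadjusted p, and 0 to 2 with 1 library left out. For western diet + oil, 0 as reported, it was 1 with rescaling to a common sum, 3 with the compared groups alone, 3 by unadjusted p and 0 to 3 with 1 library left out. For the interaction, 0 as reported, it was 2 by unadjusted p and 0 to 2 with 1 library left out. The cause was not tested, except that no filter tests more genes and the compared groups alone use fewer libraries. For western diet + oil, the compared groups alone kept the same log2 fold changes and took in no normal diet + CCl4 spread. The SE was then 0.18 for Srxn1, 0.18 for Nqo1 and 0.34 for Hmox1, against 0.43, 0.27 and 0.46 as reported.

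No value that changed sign passed as reported or after the change. Rescaling to a common sum gave 0.043 for Gclm and 0.080 for Txnrd1 with western diet + CCl4, and 0.078 for Txnrd1 with western diet + oil. Median-of-ratios scaling gave -0.011 for Nfe2l2 and -0.15 for Gsr with western diet + CCl4, -0.11 for Gclm with normal diet + CCl4, and -0.25 for Gclc and -0.13 for Gsr with western diet + oil. Mup removal gave -0.079 for Gsr with western diet + CCl4, and -0.14 for Gclc and -0.019 for Gsr with western diet + oil. The replicate block gave -0.23 for Gsr with western diet + CCl4 and 0.043 for Txnrd1 with western diet + oil. With 1 library left out, the values for normal diet + CCl4 ran from -0.37 to 1.11 for Gclc, -0.070 to 0.87 for Gsr, -0.042 to 1.39 for Hmox1 and -0.062 to 0.88 for Txnrd1. Those for western diet + oil ran from -0.41 to 0.43 for Gclc, -0.014 to 0.26 for Gsr and -0.31 to 0.26 for Txnrd1, and that of Txnrd1 with western diet + CCl4 from -0.12 to 0.032.

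Deviations of same-numbered libraries from their group means correlated at -0.28 to -0.01. In a group of 2 libraries the deviations mirror each other, so normal diet + CCl4 and western diet + oil gave -0.060 for both numbers. Whether the numbers pair the libraries was not tested beyond these values. Under the replicate block Nqo1 with normal diet + CCl4 was 1.35 (limma adjusted p = 0.161) and Sod3 with western diet + oil 1.72 (0.143). Across all genes the counts of calls moved by over 1.5 times in both directions. With normal diet + CCl4 there were 164 as reported, 18 with no filter and 493 with rescaling to a common sum. With western diet + oil there were 508 as reported, 121 with no filter, 32 under the block and 819 with rescaling to a common sum. FPKM without counts give no depth, which limits what can be said of Slc7a11 and of values near 1 FPKM.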
